A study of Mus musculus with 11 samples.

Results

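10 genes of liver macrophages were followed in the liver RNA-seq of FSH-treated mice and were taken from the table by symbol. They are Adgre1, Clec4f, Cd5l, Marco, Timd4, Cd68, Ccl2, Trem2, Gpnmb and Csf1r, 10 of the 36788 genes in the table. A mean of at least 0.5 CPM (the reads of a gene scaled to a library total that is the same for every liver) over all livers was needed for the test across genes, and 8 of the 10 were among the 12733 genes that reached it. Gpnmb and Ccl2 did not, and are given by their reads. The livers came from female mice over 12 weeks old, which the labels give as wild-type C57BL/6 and for which the study's methods describe a mixed background that includes this strain. Every mouse had been ovariectomized (OVX) and fed a high-fat diet. The 5 mice of the FSH group (mice 1, 2, 3, 4 and 6) were given follicle-stimulating hormone by injection into the abdomen, and the 6 mice of the control group (mice 1 to 6) were given saline. All of the animals therefore lacked ovarian hormones, and no mouse with ovaries or on normal chow entered these comparisons.

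Kupffer cells are the macrophages that live in the sinusoids of the liver, where they clear particles, dying cells and old red blood cells from the portal blood. They are kept alive by signalling through CSF1R, the receptor of the growth factors CSF1 and IL-34. When they are lost or when fat accumulates, monocytes drawn in by chemokines such as CCL2 enter the liver and may become new Kupffer cells or lipid-associated macrophages, which express TREM2 and GPNMB. CLEC4F is a lectin found on mouse Kupffer cells, TIMD4 is a receptor for phosphatidylserine on dying cells that marks long-resident Kupffer cells, and CD5L is a secreted protein that protects macrophages from death. ADGRE1 is a surface antigen long used to stain mouse macrophages, MARCO is a scavenger receptor for bacteria and particles, and CD68 is a glycoprotein of macrophage lysosomes.

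The stretch of DNA before the start of a gene is where factors of the macrophage lineage can bind, and it is shown for 4 genes whose levels varied together from liver to liver (Clec4f, Timd4, Cd5l and Cd68) and for Trem2, whose level followed them less closely. RefSeq promoter sequences (GRCm38.p6) were matched for 7 of the 10 genes. The windows are chr6:83656188-83656366 on the minus strand for Clec4f, chr11:46810549-46810798 on the plus strand for Timd4, chr3:87357631-87357880 on the plus strand for Cd5l, chr11:69666171-69666420 on the minus strand for Cd68 and chr17:48346151-48346400 on the plus strand for Trem2. Each holds the 250 bases before the RefSeq start, except that of Clec4f, which was shortened to 179 bases because its annotated GENCODE gene begins further upstream. Sequences run 5′ to 3′ on the strand of the gene, and capitals mark matches, on either strand, to GAGGAA (the core bound by PU.1, the lineage factor of macrophages) or TGCTGA (a half-site of the MAF factors).
Clec4f: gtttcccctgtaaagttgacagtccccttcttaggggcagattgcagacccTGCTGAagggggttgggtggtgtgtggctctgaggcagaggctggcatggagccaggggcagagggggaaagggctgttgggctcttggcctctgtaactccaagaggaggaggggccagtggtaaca
Timd4: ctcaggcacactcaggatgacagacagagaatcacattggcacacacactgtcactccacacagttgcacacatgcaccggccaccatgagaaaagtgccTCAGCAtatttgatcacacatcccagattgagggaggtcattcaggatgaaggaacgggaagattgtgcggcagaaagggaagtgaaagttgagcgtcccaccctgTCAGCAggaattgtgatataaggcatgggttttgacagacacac
Cd5l: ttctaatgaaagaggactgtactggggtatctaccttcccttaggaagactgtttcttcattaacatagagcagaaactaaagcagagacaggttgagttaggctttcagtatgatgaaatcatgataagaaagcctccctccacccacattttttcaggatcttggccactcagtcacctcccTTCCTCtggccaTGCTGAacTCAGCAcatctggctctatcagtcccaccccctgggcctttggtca
Cd68: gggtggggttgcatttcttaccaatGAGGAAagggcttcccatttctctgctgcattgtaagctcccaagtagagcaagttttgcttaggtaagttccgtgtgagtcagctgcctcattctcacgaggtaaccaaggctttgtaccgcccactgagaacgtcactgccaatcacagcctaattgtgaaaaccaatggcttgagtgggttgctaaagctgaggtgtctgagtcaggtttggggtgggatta
Trem2: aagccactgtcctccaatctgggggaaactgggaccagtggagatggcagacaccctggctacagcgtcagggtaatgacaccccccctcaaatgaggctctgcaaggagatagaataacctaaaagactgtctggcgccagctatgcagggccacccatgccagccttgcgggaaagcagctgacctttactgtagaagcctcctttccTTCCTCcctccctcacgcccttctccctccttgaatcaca

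GAGGAA or its reverse complement TTCCTC was found in the windows of 4 of the 7 genes (Cd5l, Marco, Cd68 and Trem2), against 23.3% of 32851 windows of 250 bases. TGCTGA or its reverse complement TCAGCA was found in 3 (Clec4f, Cd5l and Timd4), against 16.1% of those windows. The window of Cd5l held both motifs and that of Gpnmb held neither. No match to 1 motif overlapped a match to the other in the sequences shown, and a match describes the sequence only. The Clec4f window is shorter than those it is set against.

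The FSH libraries held 11410596 to 19909327 reads on genes, and the control libraries 10801891 to 16077442. The lowest mean chi-square per gene between livers of 1 group was 10.6, so no library was a copy of another of its own group within sampling noise. Reads of 3 or fewer correspond to 0.151 CPM in the deepest library and 0.278 CPM in the shallowest, which covers counting error only. The labels number the mice but do not say whether they shared a cage, and the p-values measure the spread between these livers. In whole-liver RNA, fewer macrophages and less RNA per macrophage cannot be told apart.

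All 8 tested genes had a fitted level below that of the control group (7 of 8 without FSH mouse 3, where Marco was at 0.08), and 1 of them, Cd68, passed the test (limma with Benjamini-Hochberg adjustment over all genes tested, threshold 0.05). Of all tested genes, 10.6% passed in either direction, 4.41% as lower and 6.19% as higher. The median log2 fold change of the 8 genes was -0.51, beside 0.02 over all tested genes, and 46.0% of all tested genes had a fitted change below 0. At an unadjusted p under 0.05, 5 of the 8 passed, all of them with FSH lower, against 10.5% of all tested genes in that direction and 25.1% in either. The 8 genes were chosen with earlier results of these data known, and most of them varied together from liver to liver. Their counts are therefore set beside the shares of all genes as a description and not as a test. None of the 8 passed both thresholds of the study's methods, that for the adjusted p and a log2 fold change of more than 1 in size, as 1.83% of all genes did, and none did in the 23 alternatives, voom, edgeR and DESeq2 among them. In none of the 10 genes did the FSH and control values stand wholly apart, which they did for 6.67% of all tested genes in either direction and for 2.72% with FSH lower. Fold changes were taken on log2(CPM + 0.5), so those of weakly expressed genes come out smaller than the ratio of the CPM values.

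**Figure D1:**
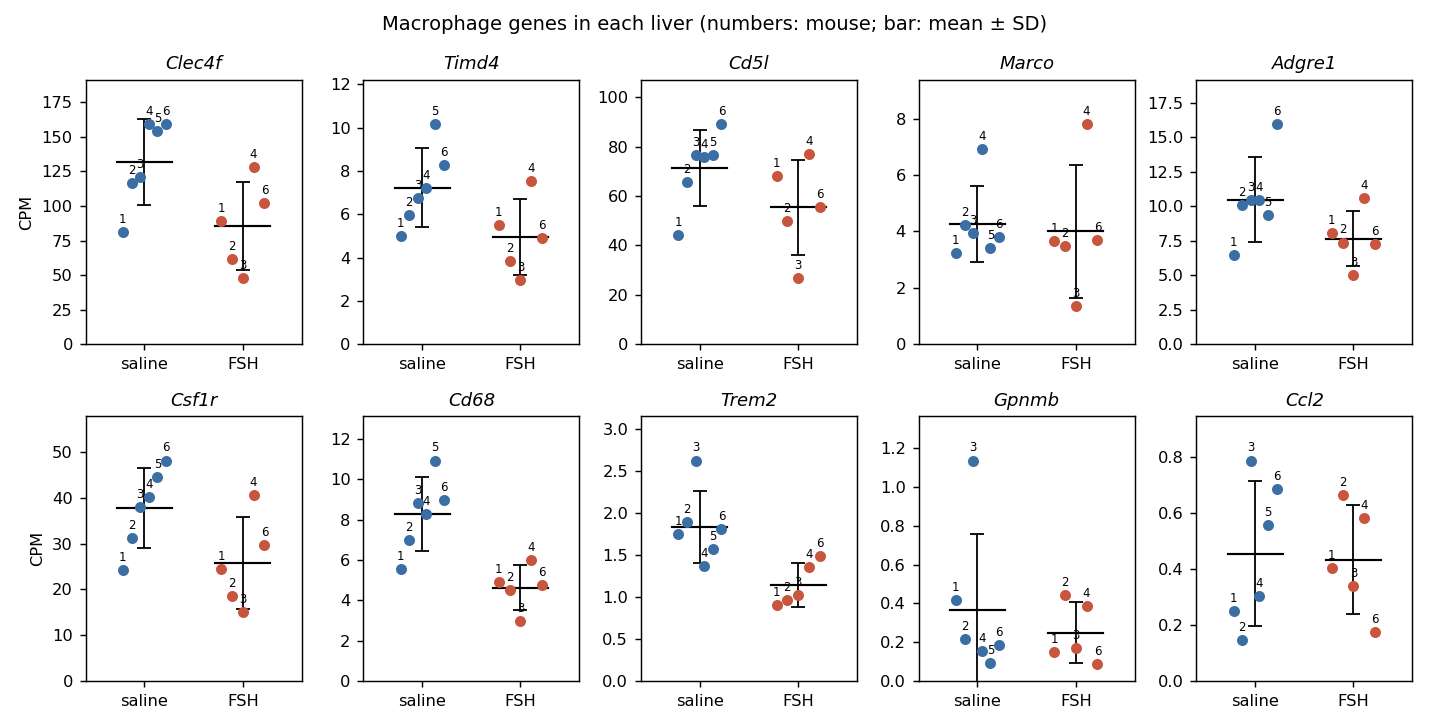
CPM of the 10 macrophage genes in each liver, with saline controls (n = 6, blue) on the left and FSH-treated mice (n = 5, red) on the right of each panel. Small numbers give the mouse, long bars the mean and error bars the SD. The y axes differ between panels and start at 0, and the lower error bar of Gpnmb in the control group runs below it. FSH mouse 3 lies lowest for Clec4f, Timd4, Cd5l, Marco, Adgre1, Csf1r and Cd68.

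Among the genes that mark resident Kupffer cells, Clec4f was measured with the most reads. In the FSH group it had 88.9, 61.7, 47.7, 128 and 102 CPM in mice 1, 2, 3, 4 and 6, and in the control group it ran from 81.1 to 159 CPM with a median of 137. All 5 FSH livers lay below the control median, 2 lay below every control and 3 controls lay above every FSH liver. The mean was 85.6 ± 31.95 CPM (SD, n = 5) in FSH livers and 132 ± 31.3 CPM (SD, n = 6) in controls, a difference of -35.0%. A log2 fold change of -0.67 (standard error 0.23, 95% interval -1.16 to -0.17) did not pass limma's test (adjusted p = 0.0818). The exact permutation test of the means over all 462 splits of the livers, two-sided, gave p = 0.0455 for Clec4f, 1 of 10 such unadjusted tests, and p = 0.105 without FSH mouse 3. Without FSH mouse 3 the log2 fold change of Clec4f was -0.48 (limma's adjusted p = 0.202). It passed the test without FSH mouse 4 (limma's adjusted p = 0.0369), without control mouse 1 (0.0360) and with DESeq2 in place of limma (0.0359). Clec4f lies on chromosome 6 of GRCm38 from 83644542 to 83656187, on the minus strand, and overlaps no other annotated gene.

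Timd4, the phosphatidylserine receptor, had 5.53, 3.84, 2.95, 7.56 and 4.91 CPM in FSH mice 1, 2, 3, 4 and 6. Control values ran from 4.98 to 10.2 CPM with a median of 6.98. A set of 3 FSH livers (mice 2, 3 and 6) lay below every control, and 2 controls lay above every FSH liver. Fitted on the log2 scale, the change was -0.53 (standard error 0.21, 95% interval -0.98 to -0.08, limma's adjusted p = 0.124), and the exact permutation test gave p = 0.0693. It passed limma's test in 1 of 23 alternatives, without FSH mouse 4 (adjusted p = 0.0498). Timd4 lies on chromosome 11 from 46810800 to 46844332, on the plus strand.

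Cd5l, which encodes the secreted survival protein, had 68.1, 50.1, 26.8, 77.1 and 55.4 CPM in the FSH livers in the same order of mice, and 44.1 to 89.3 CPM with a median of 76.1 in the controls. The groups overlapped over most of their range, with 1 FSH liver (mouse 3) below every control and 1 control (mouse 6) above every FSH liver. For Cd5l the log2 fold change was -0.41 (standard error 0.23, 95% interval -0.90 to 0.08, limma's adjusted p = 0.293). Without FSH mouse 3 it was -0.17 (limma's adjusted p = 0.636). Cd5l lies on chromosome 3 from 87357881 to 87371073, on the plus strand.

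The scavenger receptor gene Marco had 3.67, 3.47, 1.36, 7.82 and 3.68 CPM in the FSH livers and 3.24 to 6.92 CPM with a median of 3.86 in the controls. Marco was both lowest and highest in FSH livers, in mouse 3 and mouse 4. Its means were 3.998 ± 2.35 CPM (SD, n = 5) and 4.26 ± 1.35 CPM (SD, n = 6), and the log2 fold change was -0.20 (95% interval -0.81 to 0.42, limma's adjusted p = 0.729). The sign turned to 0.08 without FSH mouse 3, so no direction is given for Marco. It lies on chromosome 1 from 120474538 to 120505024, on the minus strand.

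Adgre1, the gene of the general macrophage antigen, had 8.04, 7.38, 4.98, 10.6 and 7.27 CPM in the FSH livers and 6.48 to 16.0 CPM with a median of 10.3 in the controls. A single control (mouse 6) lay above every FSH liver and a single FSH liver (mouse 3) lay below every control. For Adgre1 it was -0.42 on the log2 scale (standard error 0.20, 95% interval -0.84 to 0.01, limma's adjusted p = 0.206), and it passed the test in 0 of 23 alternatives (lowest adjusted p = 0.0803). Adgre1 lies on chromosome 17 from 57358691 to 57483527, on the plus strand.

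Csf1r, the growth factor receptor on which macrophages depend, had 24.6, 18.7, 15.01, 40.7 and 29.6 CPM in the FSH livers. Control values ran from 24.2 to 48.2 CPM with a median of 39.2. FSH mice 2 and 3 lay below every control, while FSH mouse 4 lay above the control median. The mean was 25.7 ± 10.1 CPM (SD, n = 5) in FSH livers and 37.8 ± 8.79 CPM (SD, n = 6) in controls. The log2 fold change was -0.60 (standard error 0.23, 95% interval -1.08 to -0.11, limma's adjusted p = 0.109), and Csf1r passed the test in 1 of 23 alternatives, without FSH mouse 4 (adjusted p = 0.0339). It lies on chromosome 18 from 61100598 to 61132149 on the plus strand and overlaps Mir6983 on the same strand and Hmgxb3 on the opposite strand. The use of strand in counting is not given in the sources used here, so reads of Csf1r and Hmgxb3 in their overlap cannot be told apart.

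Cd68 fell in the FSH-treated group. In FSH mice 1, 2, 3, 4 and 6 it had 4.92, 4.50, 2.95, 6.01 and 4.73 CPM, and in controls 5.56 to 10.9 CPM with a median of 8.56. All FSH livers except mouse 4 lay below every control, and all controls except mouse 1 lay above every FSH liver. The mean was 4.62 ± 1.10 CPM (SD, n = 5) in FSH livers and 8.26 ± 1.83 CPM (SD, n = 6) in controls, a difference of -44.0%. The log2 fold change was -0.78 (standard error 0.18, 95% interval -1.15 to -0.40, limma's adjusted p = 0.0118). Only 1.88% of all tested genes had a log2 fold change as low or lower. The exact permutation test, two-sided, gave p = 0.00866, where the smallest p that 462 splits allow is 0.00216. Cd68 passed the test in all 23 alternatives (adjusted p from 0.000307 to 0.0381), with log2 fold changes from -0.88 to -0.64, the latter without FSH mouse 3. It was measured with 52 to 98 reads per FSH liver and 67 to 144 reads per control. Cd68 lies on chromosome 11 from 69664213 to 69666153, on the minus strand, and overlaps no other annotated gene.

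**Figure D2:**
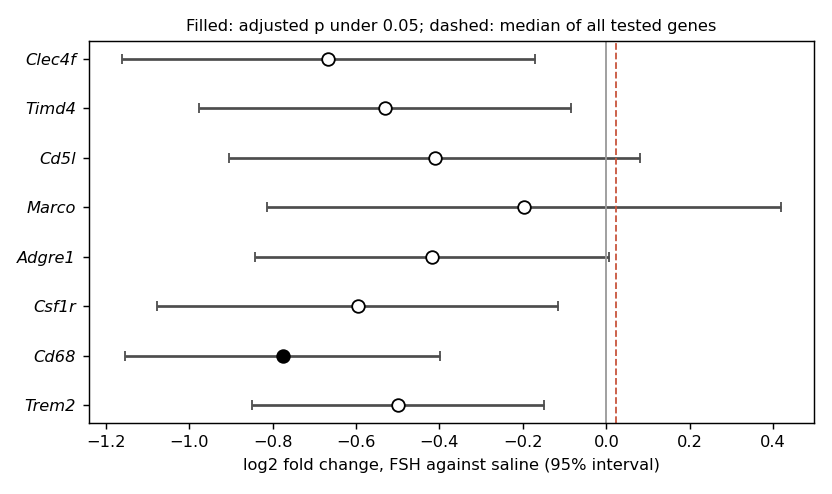
Log2 fold change of FSH against saline for the 8 tested macrophage genes, on the log2(CPM + 0.5) scale, with 95% intervals from limma. The filled point (Cd68, -0.78) is the gene with an adjusted p under 0.05, open points are the other 7, and the dashed line is the median of all tested genes (0.02). The intervals of Cd5l, Marco and Adgre1 reach past 0.

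Of the genes linked to lipid-associated macrophages, Trem2, a lipid-sensing receptor, had 0.904, 0.959, 1.02, 1.36 and 1.49 CPM in the FSH livers and 1.37 to 2.62 CPM with a median of 1.77 in the controls. These values rest on 13 to 21 reads per FSH liver and 17 to 30 reads per control. FSH mice 1, 2, 3 and 4 lay below every control, and 5 of 6 controls lay above every FSH liver. The mean was 1.15 ± 0.261 CPM (SD, n = 5) in FSH livers and 1.83 ± 0.429 CPM (SD, n = 6) in controls. The log2 fold change was -0.50 (standard error 0.16, 95% interval -0.85 to -0.15) and did not pass limma's test (adjusted p = 0.0653), while the exact permutation test of the means gave p = 0.00866. At this depth the pseudocount weighs on the fold change, and edgeR on the recovered reads gave -0.71 (adjusted p = 0.0494). Trem2 passed the test in 5 of the 22 alternatives in which it was tested. It lies on chromosome 17 from 48346401 to 48354147, on the plus strand.

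Gpnmb, a glycoprotein of lysosomes in lipid-laden macrophages, had 3, 6, 3, 6 and 1 reads in the FSH livers and 5, 3, 13, 2, 1 and 3 reads in control mice 1 to 6. Apart from control mouse 3, with 1.14 CPM, no liver exceeded 0.443 CPM. The means were 0.248 ± 0.157 CPM (SD, n = 5) and 0.367 ± 0.393 CPM (SD, n = 6), and no difference was detectable at this depth (exact permutation test, p = 0.699). Gpnmb lies on chromosome 6 from 49036546 to 49070929, on the plus strand.

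Ccl2, the chemokine that draws in monocytes, had 8, 9, 6, 9 and 2 reads in the FSH livers and 3, 2, 9, 4, 6 and 11 reads in the controls. Its means were 0.432 ± 0.195 CPM (SD, n = 5) and 0.454 ± 0.258 CPM (SD, n = 6), and no difference was detectable (exact permutation test, p = 0.879). The lowest and the highest value of Ccl2 were both in control livers. Ccl2 lies on chromosome 11 from 82035571 to 82037453 on the plus strand and overlaps Gm17268 on the opposite strand, so reads of the 2 cannot be told apart there.

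Per kilobase of exon, Clec4f stood first with a level of 44.9 ± 15.6 CPM per kb (SD, n = 11 livers), followed by Cd5l with 31.5 ± 8.96 CPM per kb, a gap within their spread. Csf1r (6.61 ± 2.23 CPM per kb) stood well below Cd5l, and its mean and that of Cd68 (5.25 ± 1.91) lay within the SDs of each other. Timd4 (2.85 ± 0.956), Adgre1 (2.84 ± 0.904), Marco (2.15 ± 0.920) and Trem2 (1.33 ± 0.436 CPM per kb) followed, each within the spread of its neighbour, as Timd4 was with Cd68. Ccl2 with 0.547 ± 0.271 CPM per kb and Gpnmb with 0.0693 ± 0.0668 CPM per kb were lowest, each apart from the gene above it by more than the SDs. The order is that of mean levels over both groups. The SDs are those between livers, and the levels per kilobase were not compared liver by liver. Genes whose means lie within these SDs may therefore still keep their order in every liver.

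The livers differed from each other in the same direction for most of these genes. FSH mouse 3 had the lowest level of all 11 livers for 7 of the 8 tested genes, the exception being Trem2, which was lowest in FSH mouse 1. FSH mouse 4 had a median rank of 9 among the 11 livers over the 8 genes, the same as control mouse 5, and control mouse 1 had a median rank of 3. The summed CPM of the 8 genes were 205, 150.5, 103, 279 and 209 in FSH mice 1, 2, 3, 4 and 6. In controls the sum was 171, 243, 268, 309.5, 311 and 335 CPM in mice 1 to 6. The sums overlapped, with 3 of 5 FSH livers (mice 1, 4 and 6) inside the control range and 3 of 6 controls (mice 1, 2 and 3) inside the FSH range. Without FSH mouse 3, the median log2 fold change of the 8 genes was -0.40.

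**Figure D3:**
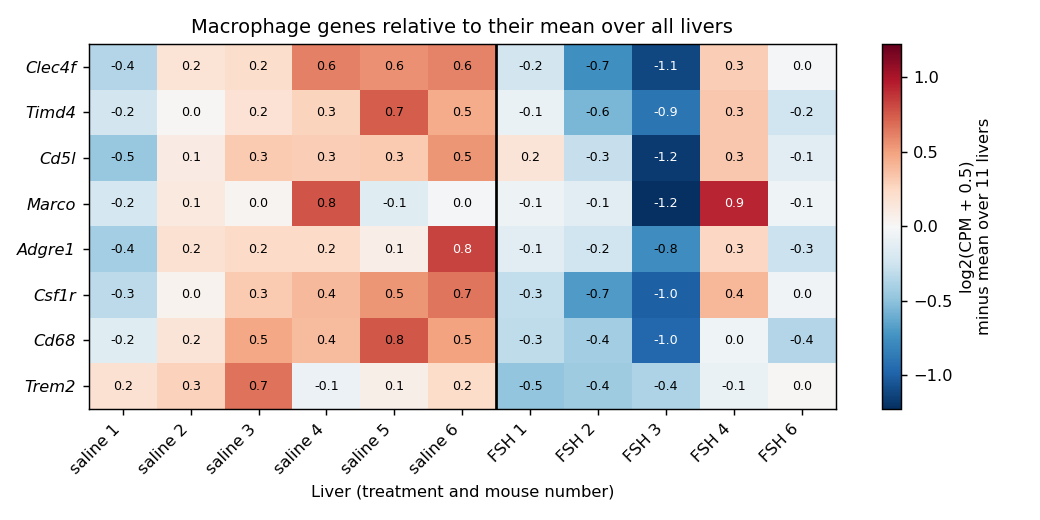
Log2(CPM + 0.5) of the 8 tested genes in each of the 11 livers, minus the mean of the gene over all livers (red above, blue below; values printed in the cells). Columns are livers, with saline controls left of the black line and FSH-treated mice right of it. The column of FSH mouse 3 is the darkest blue except for Trem2, and the column of FSH mouse 4 is red or near 0 throughout.

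With each group centred on its own mean, 6 genes (Clec4f, Timd4, Cd5l, Adgre1, Csf1r and Cd68) varied closely together over the 11 livers. Pearson's r of their log2(CPM + 0.5) values was 0.733 to 0.975 over the 15 pairs, with a median of 0.889, and highest between Clec4f and Csf1r. Leaving out FSH mice 3 and 4, the lowest and highest of their group, r was 0.522 to 0.960 with a median of 0.829 over 9 livers. Marco correlated with these 6 genes with r from 0.630 to 0.772. Trem2 had r from 0.0976 to 0.303 with the other 7. These are descriptions over libraries that share their scaling, and Trem2 was measured with few reads.

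Because 6 of the genes moved together, each gene was also set against Clec4f within the liver, a comparison added after the values had been seen. Cd68 amounted to a median of 5.54 CPM per 100 CPM of Clec4f in FSH livers (4.64 to 7.30) and 6.43 in controls (5.20 to 7.30). Csf1r amounted to 30.3 per 100 CPM of Clec4f in FSH livers and 29.4 in controls. Of the 7 genes compared in this way, the smallest unadjusted p was 0.0779, for Cd5l (exact permutation test, two-sided), with medians of 60.2 in FSH livers and 55.2 in controls. The ranges of the 2 groups overlapped for all 7 genes.

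The genes whose levels followed each of the 8 most closely over the 11 livers were found by the same correlation, group means removed. Clec4f was followed by Csf1r, Sipa1 (r = 0.969) and C1qb (r = 0.969), the last a chain of the complement component C1q. Timd4 was followed by Folr2 (r = 0.970), Lrrc25 (r = 0.970) and Vsig4 (r = 0.960), of which Folr2 encodes a folate receptor and Vsig4 a complement receptor of Kupffer cells. Cd68 was followed by Rac2 (r = 0.966), Vsig4 (r = 0.958) and Csf2ra (r = 0.954), and Csf1r by Clec4f, Lrrc25 (r = 0.964) and Sipa1 (r = 0.964). Cd5l was followed by the lysosomal protease gene Lgmn (r = 0.9502), Arhgap30 (r = 0.949) and Csf2ra (r = 0.930). For Adgre1 the closest were Ccdc93 (r = 0.920), 6430548M08Rik (r = 0.903) and Cd5l (r = 0.888), and for Marco they were Otud5 (r = 0.913), Vav1 (r = 0.910) and Srek1 (r = 0.908). Trem2 was followed by Mesd (r = 0.930), Plaur (r = 0.923) and Uba1 (r = 0.898). None of these was among the closest to any other of the genes, which also held for those of Marco and Adgre1. All are the highest r among all tested genes over 11 livers, and how high r comes by chance was not tested.

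Of 19 listed genes of Kupffer cell identity, which include 5 of the 10, all were tested, 18 had a fitted change below 0, 1 passed the test as lower and 0 as higher, with a median log2 fold change of -0.38 (-0.31 over the 14 that are not among the 10). The gene that fell was Lyve1, a hyaluronan receptor that is also a marker of sinusoidal endothelial cells, which had 10.1 ± 2.63 CPM (SD, n = 5) in FSH livers, 15.6 ± 1.76 CPM (SD, n = 6) in controls and a log2 fold change of -0.63 (limma's adjusted p = 0.0121). The median of the list was -0.23 without FSH mouse 3. Over all livers, the summed level of its genes ran from 487 CPM (FSH mouse 3) to 730.0 CPM in FSH livers and from 559 to 796 CPM in controls. Nr1h3 (means of 106 CPM in FSH livers and 121 in controls) and Slc40a1 (113 and 123) made up a large part of it. Clec4g (51.5 and 52.2) is, like Lyve1, also in the sinusoidal endothelial list, so the sum is not a level of Kupffer cells alone.

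In the list of macrophage lineage genes and the CSF1R axis, 20 of 20 were tested, 1 passed as higher, 0 as lower, and the median log2 fold change was -0.26. Csf1, a ligand of CSF1R, rose from 6.71 ± 1.17 CPM (SD, n = 6) to 10.9 ± 1.40 CPM (SD, n = 5), a log2 fold change of 0.67 (limma's adjusted p = 0.00425). Its FSH values (9.74 to 13.2 CPM) lay above all control values (4.90 to 8.04 CPM), and it passed in all 23 alternatives. The other ligand gene, Il34, had a log2 fold change of -0.12 (limma's adjusted p = 0.672), and Tyrobp, the adaptor through which TREM2 signals, one of -0.56 (limma's adjusted p = 0.133). These 2 were named after their values had been seen. Over the 11 livers with group means removed, Csf1r had r = 0.188 with Csf1, 0.250 with Il34 and 0.916 with Tyrobp, and Trem2 had r = 0.0304 with Tyrobp. Without FSH mice 3 and 4 these were 0.267, 0.474, 0.869 and -0.212 over 9 livers. Among genes of the lipid-associated list, Trem2 had r = 0.494 with Apoe, 0.453 with Lgals3 and 0.166 with Cd9 over the 11 livers.

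Among 18 genes of phagocytosis, complement and scavenger receptors, 15 had a fitted change below 0, 1 passed as lower and 0 as higher (median -0.14, and -0.08 without FSH mouse 3). Cd36, a fatty acid transporter and scavenger receptor also made by hepatocytes and endothelium, fell by 0.79 on the log2 scale (limma's adjusted p = 0.0346), from 102 ± 37.4 CPM (SD, n = 6) to 56.1 ± 11.6 CPM (SD, n = 5). Cd36 passed in 14 of 23 alternatives and in 4 of the 11 fits with a library left out (lost without FSH mice 1, 2, 3 or 6 or control mice 3, 5 or 6). The genes of the C1q chains, looked at after their values had been seen, had log2 fold changes of -0.71 for C1qa (limma's adjusted p = 0.0522), -0.61 for C1qb (0.0733) and -0.57 for C1qc (0.0948).

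Of 18 lysosomal genes, 9 had a fitted change below 0 and the median was -0.02 (-0.00224 without FSH mouse 3), with 2 passing as lower and 1 as higher. Besides Cd68, Cd63, a tetraspanin of late endosomes, fell by 0.61 on the log2 scale (limma's adjusted p = 0.02002), from 10.4 ± 2.14 CPM (SD, n = 6) to 6.59 ± 0.967 CPM (SD, n = 5), a call lost without FSH mouse 1 (adjusted p = 0.0568) and with the replicate number as a block (0.0704). Npc2, which moves cholesterol out of lysosomes, rose by 0.27 on the log2 scale (limma's adjusted p = 0.0409), but passed in only 9 of 23 alternatives and in neither of the other scalings between libraries (adjusted p = 0.0826 and 0.0540). Most lysosomal genes are expressed by all liver cells, and their summed level was 4071 to 4275 CPM in FSH livers and 3938 to 4460 CPM in controls.

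Of 15 tested genes of lipid-associated macrophages, 11 had a fitted change below 0 (median -0.17), with Cd63, whose call is limited as above, passing as lower and Fabp5 as higher. Fabp5, a fatty acid binding protein also made outside macrophages, rose from 46.5 ± 18.3 CPM (SD, n = 6) to 237 ± 142 CPM (SD, n = 5), a log2 fold change of 2.20 (limma's adjusted p = 0.00162). Of 16 genes of monocyte recruitment, 10 were tested and 1 passed, as lower. That gene, Vcam1, an adhesion molecule of endothelium and Kupffer cells, had 12.4 ± 3.16 CPM (SD, n = 5) in FSH livers and 20.6 ± 4.18 CPM (SD, n = 6) in controls, a log2 fold change of -0.71 (limma's adjusted p = 0.0106). Of 22 inflammatory cytokine and chemokine genes, 12 were tested, and Tnf, Il6, Il10 and Nos2 were among the 10 below the filter. Il18, a cytokine released after inflammasome activation, rose from 7.84 ± 1.59 CPM (SD, n = 6) to 11.5 ± 0.898 CPM (SD, n = 5), a log2 fold change of 0.55 (limma's adjusted p = 0.0179), a call lost without FSH mouse 1 (adjusted p = 0.0564). The other 11 did not pass.

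All 7 genes of MHC class II antigen presentation had a fitted change below 0 (median -0.53), and 0 passed limma's test, with 4 at an unadjusted p under 0.05. Voom, edgeR and DESeq2 also gave 0, and 4 passed without FSH mouse 4. The pair with the smallest p were H2-Eb1 (log2 fold change -0.56, limma's adjusted p = 0.123) and Cd74, the invariant chain (-0.58, 0.151). Of 11 tested genes that glucocorticoids induce in macrophages, 11 had a fitted change below 0 (median -0.61) and 2 passed as lower, Zbtb16 (log2 fold change -2.62, limma's adjusted p = 8.5e-05) and Klf9 (-1.03, limma's adjusted p = 0.00226), both of which hepatocytes also express.

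**Figure D4:**
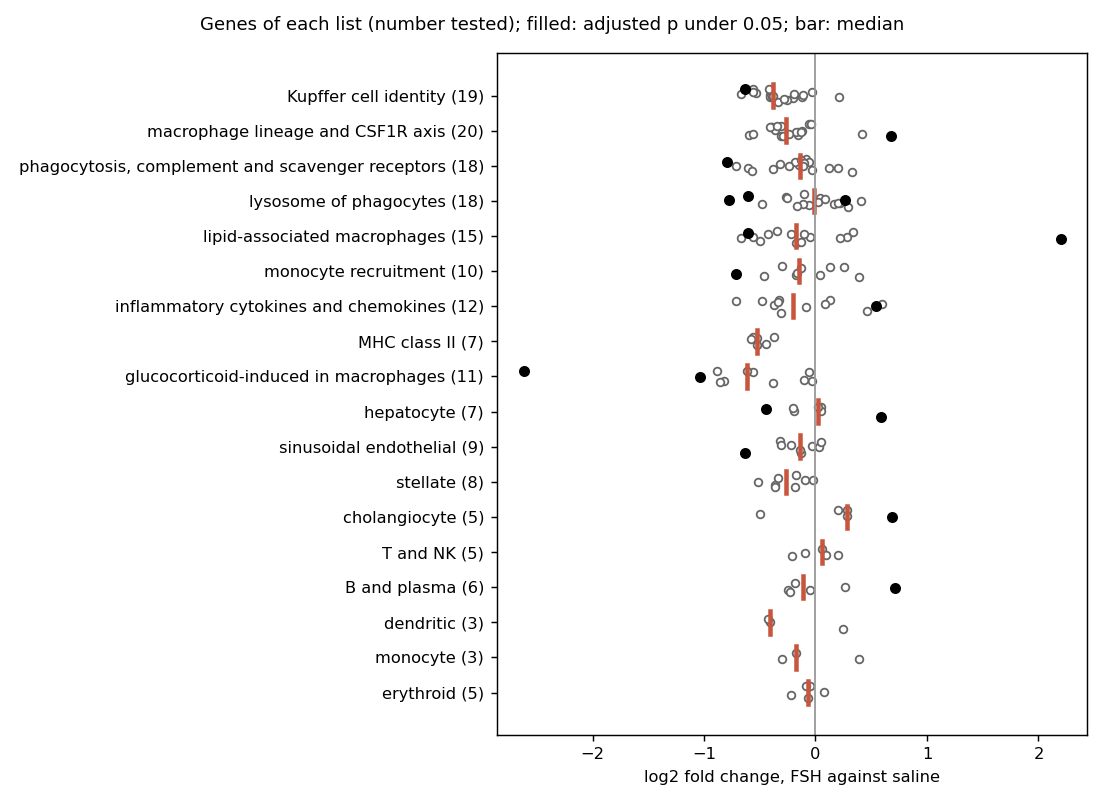
Log2 fold change of FSH against saline for each tested gene of the macrophage lists and of the markers of other liver cells (the number tested is in parentheses). Filled points passed limma's test at an adjusted p under 0.05, and red bars are list medians. Vertical scatter within a list only separates the points. The neutrophil markers, of which 2 were tested, are not drawn. Most bars lie left of 0, the furthest being those of the glucocorticoid-induced list (-0.61), MHC class II (-0.53), dendritic cells (-0.41) and Kupffer cell identity (-0.38), while the bars of hepatocytes (0.02), cholangiocytes (0.28) and T and NK cells (0.05) lie right of it.

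Markers of other cells of the liver were counted in the same way. For sinusoidal endothelial cells, 9 of 9 markers were tested, 7 had a fitted change below 0, 1 (Lyve1) passed as lower, the median log2 fold change was -0.14, and the summed level was 179 to 267 CPM in FSH livers and 209 to 247 CPM in controls. For stellate cells, 8 of 8 were tested, all 8 had a fitted change below 0, 0 passed limma's test (0 at an unadjusted p under 0.05), the median was -0.26, that of the macrophage lineage list, and the sums were 226 to 328 CPM against 271 to 378 CPM. Hepatocyte markers (7 tested, 3 below 0) had a median of 0.02, with 1 passing in each direction, and cholangiocyte markers (5 tested, 1 below 0) a median of 0.28 with 1 passing as higher. T and NK cell markers (5 of 10 tested, 2 below 0) had a median of 0.05, and those of B and plasma cells (6 of 7 tested, 4 below 0) -0.11 with 1 passing as higher. Those of monocytes (3 of 6 tested, 2 below 0) had a median of -0.18, and those of dendritic cells (3 of 7 tested, 2 below 0) -0.41, lower than the median of the Kupffer cell identity list. Of the neutrophil markers, 2 of 8 reached the filter and 1 had no read in any liver, and of the erythroid markers 5 of 6, with medians of -0.03 and -0.07 that turned to 0.07 and 0.01 without FSH mouse 3. The median of the T and NK cell markers was 0.01 without that mouse. The called markers other than Lyve1 were named after their values had been seen. Ass1 (hepatocyte, log2 fold change 0.59) and Krt7 (cholangiocyte, 0.69) passed as higher and did so in all 11 fits with a library left out. Ighm of the B cell list lost its call without FSH mouse 1, 3 or 4, and Hnf4a, the hepatocyte marker that passed as lower, lost it in 7 of those 11 fits (without FSH mouse 1, 2, 3 or 4 or control mouse 2, 4 or 6). The part of these cells in the values of the macrophage genes was not tested.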

How the data were processed

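Liver RNA was read as NEBNext Ultra libraries on an Illumina HiSeq instrument. The sample labels mention a papain digestion of the liver, whereas the study's methods give a column purification from tissue, and both are stated as given. The submitters' processing notes name FastQC 0.11.2, Trim Galore 0.3.3, cutadapt, STAR and RSEM and the build mm10. The annotation and the use of strand are not given in the sources used here. The authors deposited 1 table of CPM values, scaled to the library total with no further scaling, for 36788 Ensembl genes. Symbols came from GENCODE M21 (GRCm38), which left 1233 identifiers unnamed, and 6 rows repeating a symbol kept their identifier. Divided by the smallest step of each library, 100.0% of the values were whole reads within a tolerance of 0.02. Whether these whole steps are the counts that RSEM gave was not established.

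FSH and saline livers were compared with limma 3.58.1 (R 4.3.3, eBayes with trend, Benjamini-Hochberg adjustment, no covariate) using log2(CPM + 0.5), for every gene whose mean was 0.5 CPM or more. Single genes were tested on mean CPM by an exact permutation test, two-sided, in Python 3.11.15. Alternatives were other pseudocounts, filters and scalings, a replicate block, limma without the trend or with array weights, each library left out in turn, and voom, edgeR 4.0.16 and DESeq2 1.42.0 on the recovered reads. Length was the union of exons of protein-coding transcripts. The fit was tested on simulated data. The members and lists were chosen with earlier results of these data known. From each macrophage list (not from the markers of other cell types), up to 4 genes with the smallest p among those with an adjusted p under 0.05 were named, otherwise up to 2 with the smallest p, and for each tested member the 3 genes most correlated with it. Same-numbered mice of the 2 groups were not treated as pairs.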

Additional observations from a re-analysis of the deposited data

Results flagged for a closer look

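Of 20 sets of values examined (10 genes in each of 2 groups), 2 held a liver far from the others, where chance gives about 1 in 20. Marco in control mouse 4 was 6.92 CPM, while the nearest other control had 4.22 CPM and the group median was 3.86 CPM. Gpnmb in control mouse 3 was 1.14 CPM (13 reads), while the nearest other control had 0.415 CPM and the group median was 0.202 CPM. The gap to the nearest liver was 0.734 of the whole range of the group for Marco and 0.691 for Gpnmb.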

How the results depend on the processing

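Of the 10 macrophage genes, 1 passed limma's test, and 2 passed with no intensity trend, with array weights, with voom, with edgeR and with DESeq2, the added gene being Trem2 in the first 4 and Clec4f with DESeq2. Leaving out each library in turn gave 1 to 4 of them, with 4 without FSH mouse 4 (Cd68, Clec4f, Csf1r and Timd4), 2 without FSH mouse 6 (Cd68 and Trem2) and 2 without control mouse 1 (Cd68 and Clec4f). Over all genes, 1350 passed, and 803 to 1659 did when a library was left out, with 803 without FSH mouse 1. The log2 fold change of Marco ran from -0.46 to 0.0821 when a library was left out, the latter without FSH mouse 3. Differences of mean CPM (FSH minus saline) ran from -1.21 (without FSH mouse 4) to 0.401 (without FSH mouse 3) for Marco, and were also positive without control mouse 4 (0.276). They ran from -0.0836 to 0.0447 for Ccl2, positive without FSH mouse 3 (0.00129), FSH mouse 6 (0.0424), control mouse 3 (0.0447) or control mouse 6 (0.0241), and from -0.174 to 0.0347 for Gpnmb, positive without control mouse 3. The cause was not tested. Another scaling moved the median of all genes by at most 0.03 on the log2 scale.

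The mice share only a number between groups. Deviations of same-numbered livers correlated at -0.0662 to 0.356, and only mouse 2 of the FSH group correlated best with its own number. With the replicate block, 1210 genes passed the adjusted p and 251 passed both thresholds, and Cd68 stayed the only one of the 10 to pass (log2 fold change -0.69, limma adjusted p = 0.0381). The block removed the calls of Cd63 (adjusted p = 0.0704) and Npc2 (adjusted p = 0.0618) and of no other gene named by value in the macrophage lists. Its effect on the called markers of other cells (Hnf4a, Ighm, Ass1 and Krt7) is not given here. Genes with few reads, Gpnmb, Ccl2 and Trem2, are limited by depth.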
